A study of Mus musculus with 12 samples.

Results

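To see how the atrium-like parts of heart organoids (HOs) differed in gene expression from the ventricle-like parts, the 3 libraries labelled as atrial sections of HOs and the 3 labelled as ventricle sections were compared. These are 6 of the 12 libraries of the series, chosen by their labelled tissue and compartment. The remaining libraries come from the atria and the ventricles of hearts of mouse embryos at E11.5 (E11.5H), and serve here for comparison. HOs are beating structures that form when embryoid bodies, aggregates of mouse embryonic stem cells (ESCs), are cultured with FGF4 on a complex of laminin and entactin. According to the methods, BMP4, BIO and LIF were added to all HOs in the last days of culture. After 13 days the HOs were cut by hand into an atrium-like and a ventricle-like part, and RNA was taken from each whole part without sorting of cells. The labels give the strain C57BL/6 for all 6 libraries, while the methods name wild-type ESC lines of C57BL/6 and of a hybrid with JF1. No source used here ties an atrium-like and a ventricle-like part with the same replicate number to 1 HO. The libraries are called biological triplicates in the methods.

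In the heart, atrial and ventricular myocytes share most of their contractile proteins but use different myosin light chains, ion channels and transcription factors. Atrial myocytes contain Myl7 (MLC2a), Myl4, the peptide hormone Nppa and acetylcholine-gated potassium channels, and ventricular myocytes contain Myl2 (MLC2v), Myl3 and Irx4. Cardiac mesoderm develops next to the foregut endoderm, and mixed cultures of ESCs can also form endoderm, epithelium, neural cells and skeletal muscle. The actin, myosin and troponin genes of muscle carry CArG boxes, the DNA element of serum response factor, and MEF2 sites. The genes of plasma proteins made in liver and yolk sac carry sites for HNF1, a homeodomain factor of endoderm.

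The promoters below belong to the plasma protein and contractile genes with the highest mean FPKM that held such a motif, and are shown as examples of gene classes described below. Each sequence runs 5′ to 3′ along the gene's strand, from 250 bases before to 50 bases after the transcription start in RefSeq (GRCm38.p6), and capitals mark the motif. Afp, on chr5:90490464-90490763 (plus strand), and Fga, on chr3:83025903-83026202 (plus strand), hold the HNF1 motif GTTAATNAT, with Fga holding it on the opposite strand. Myl7, on chr11:5898733-5899032 (minus strand), and Actc1, on chr2:114052826-114053125 (minus strand), hold a CArG box.
Afp: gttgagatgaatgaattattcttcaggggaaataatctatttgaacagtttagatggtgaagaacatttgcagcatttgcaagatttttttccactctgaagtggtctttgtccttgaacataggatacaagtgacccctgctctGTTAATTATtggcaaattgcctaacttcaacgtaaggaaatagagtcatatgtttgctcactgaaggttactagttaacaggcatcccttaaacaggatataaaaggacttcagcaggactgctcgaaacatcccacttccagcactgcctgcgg
Fga: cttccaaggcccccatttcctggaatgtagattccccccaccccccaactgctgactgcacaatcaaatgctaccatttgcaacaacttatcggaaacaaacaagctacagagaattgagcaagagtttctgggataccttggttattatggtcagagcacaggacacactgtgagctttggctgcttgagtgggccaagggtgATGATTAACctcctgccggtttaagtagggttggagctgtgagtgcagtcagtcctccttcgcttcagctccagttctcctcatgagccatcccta
Myl7: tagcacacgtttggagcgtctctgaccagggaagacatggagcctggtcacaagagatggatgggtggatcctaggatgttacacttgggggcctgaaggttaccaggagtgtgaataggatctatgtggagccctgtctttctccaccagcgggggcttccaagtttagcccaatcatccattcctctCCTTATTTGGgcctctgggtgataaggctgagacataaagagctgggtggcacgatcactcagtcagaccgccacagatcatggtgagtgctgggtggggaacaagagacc
Actc1: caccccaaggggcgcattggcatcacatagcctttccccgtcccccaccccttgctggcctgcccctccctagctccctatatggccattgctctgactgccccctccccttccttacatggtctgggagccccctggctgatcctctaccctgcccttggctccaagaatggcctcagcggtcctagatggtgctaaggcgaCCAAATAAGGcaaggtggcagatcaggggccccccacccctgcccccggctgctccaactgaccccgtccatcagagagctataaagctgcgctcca

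The HNF1 motif started at -105 from the start site in Afp, and at -46 in Fga. On either strand it was present for 3 of 20 plasma protein genes with a RefSeq promoter (15%; Afp, Fga and Alb) and for none of the 25 contractile genes, against 254 of 27025 genes (0.94%) overall. The CArG box started at -61 in Myl7 and at -47 in Actc1. It was present for 6 of 25 contractile genes (24%; Myl7, Actc1, Myl3, Ldb3, Myom1 and Nebl), against 488 of 27025 genes (1.81%). The MEF2 motif was found for 3 of the 25 (12%; Mybpc3, Myoz2 and Ttn), against 3.7% of genes. Of all 32851 promoters of this length, 0.801% held the HNF1 motif, 1.63% a CArG box and 3.19% the MEF2 motif. Matches of the CArG and MEF2 motifs can overlap, and a match describes the letters of the window and not binding.

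The atrium-like libraries held 23971258, 29230400 and 26830154 fragments assigned to genes, and the ventricle-like libraries 28158300, 27900759 and 27461570. Levels are given as CPM, the count of a gene relative to the library total after TMM normalization, in the order of replicates 1, 2 and 3, and differences as the log2 fold change of atrium-like against ventricle-like parts with its standard error (SE). All replicates differed by more than sampling noise. The libraries did not group by part. Across genes, the pairs with the highest Pearson correlation of log2 CPM were atrium-like replicate 3 with ventricle-like replicate 3 (0.915) and atrium-like replicate 2 with ventricle-like replicate 1 (0.892), while atrium-like replicates correlated at 0.797 to 0.878 and ventricle-like replicates at 0.706 to 0.856. Marker lists of cell types other than cardiomyocytes were high in libraries of both parts. Summed over 22 plasma protein genes of liver and yolk sac, the level was 40540, 1763 and 14910 CPM in atrium-like parts and 882, 273 and 13130 CPM in ventricle-like parts. Atrium-like replicates 1 and 3 and ventricle-like replicate 3 thus carried most of this signal. Summed over 17 neural and neural crest genes, it was 5.79, 256 and 24.9 CPM in atrium-like parts and 222, 1040 and 35.5 CPM in ventricle-like parts, high in the other 3 libraries. In these bulk samples, fewer cells of a type and less RNA per cell cannot be told apart.

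**Figure D1:**
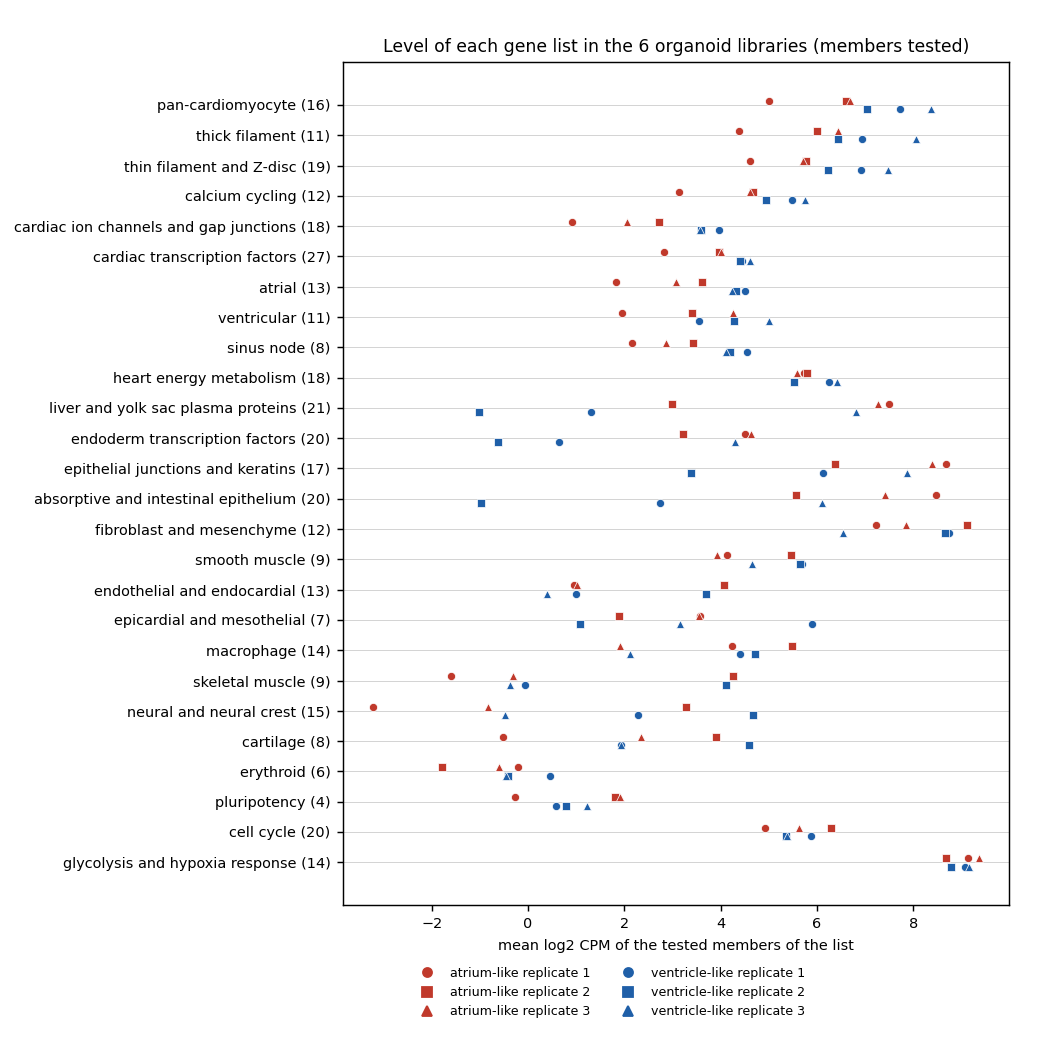
Mean log2 CPM of the tested members of each marker list (horizontal axis), with 1 point per library, red for atrium-like and blue for ventricle-like parts, and a different mark for each replicate number. All 3 atrium-like libraries lie below all ventricle-like libraries for the pan-cardiomyocyte list, while the plasma protein list is low in atrium-like replicate 2 and high in ventricle-like replicate 3.

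Among 15703 genes tested none passed the threshold, which asked for an edgeR adjusted p below 0.05 together with a log2 fold change beyond 1 in either direction (0%). Adjusted p from edgeR went no lower than 0.75, and 889 genes (5.66%) had an unadjusted p under 0.05, 515 of them higher in atrium-like and 374 higher in ventricle-like parts. DESeq2 called 56 genes and limma 0. The spread between libraries was large beside the differences. The common biological coefficient of variation was 0.677, and the median SE of a log2 fold change was 0.44, while the fitted log2 fold change exceeded 1 in size for 3288 genes (20.9%), 1632 of them higher and 1656 lower in atrium-like parts. Statements below on single genes therefore rest on the values of the libraries, and none of the genes named passed the edgeR test.

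The libraries of the parts did not overlap for 905 genes that were higher in all atrium-like libraries (5.76% of those tested) and for 973 genes that were lower (6.20%). With 3 libraries a part, some genes separate even where the parts do not differ, and how many was not estimated. The counts of 905 and 973 depended on the scaling. They were 965 and 941 with the size factors of DESeq2, 642 and 1410 with library sizes alone, 628 and 1453 in the deposited FPKM, and 8077 and 37 when libraries were scaled to 16 pan-cardiomyocyte genes. The latter scaling moved the median of all genes up by 1.71 on the log2 scale, from -0.03. It compares the parts per unit of cardiomyocyte RNA, and where the median of a gene class described below turned under it, the value is given. Leaving out 1 library, which by itself makes separation easier, gave 1276 to 3221 genes higher and 1418 to 2814 genes lower in atrium-like parts, with both highest counts without atrium-like replicate 2.

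**Figure D2:**
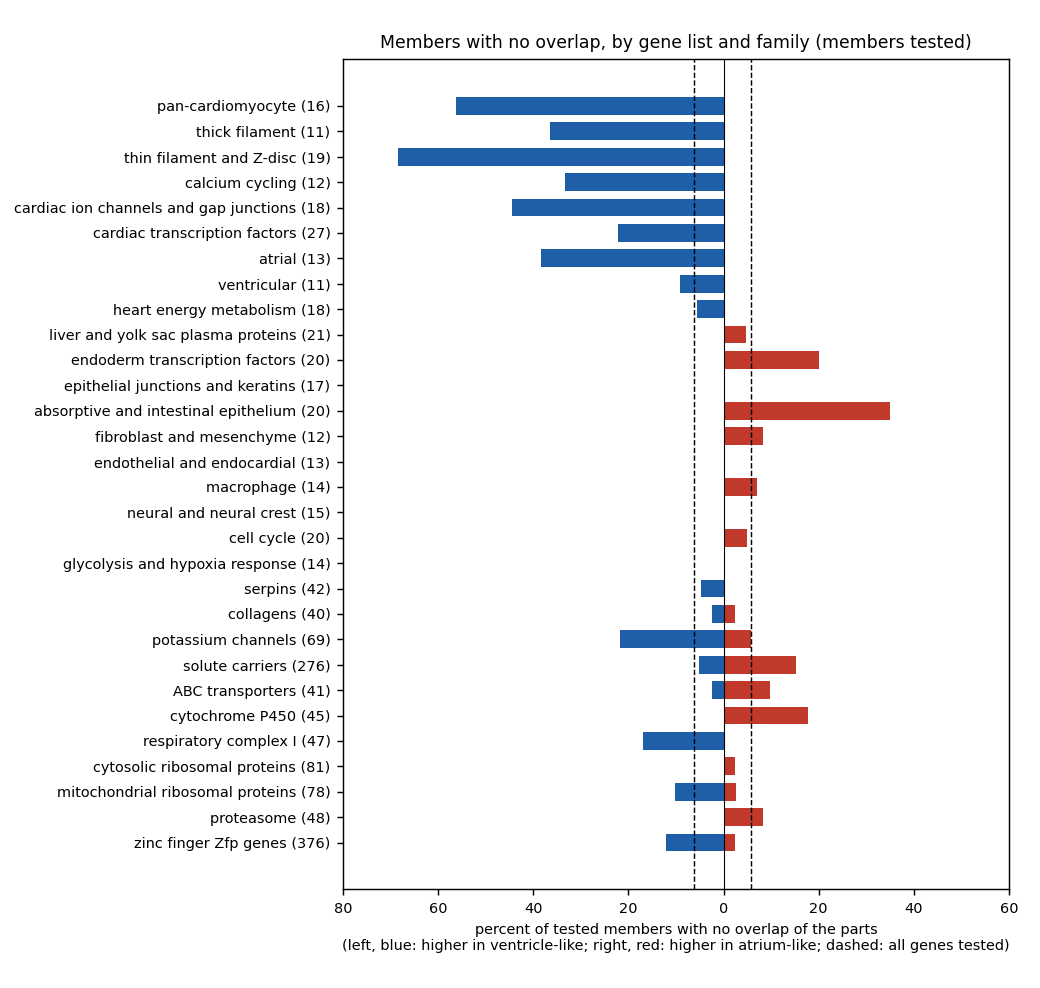
Share of the tested members of each marker list (horizontal axis, percent) and of larger gene families for which the libraries of the parts did not overlap, drawn to the right where the atrium-like parts were higher and to the left where the ventricle-like parts were higher, with dashed lines at the shares over all genes tested (5.76% and 6.20%). Thin filament and Z-disc genes reached 68.4% on the ventricle-like side, and absorptive and intestinal genes 35% on the atrium-like side.

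Relative to all genes, those of the sarcomere, the contractile unit of heart muscle, were lower in atrium-like parts. Actc1 (chromosome 2 from 114047284 to 114052875 of GRCm38), the cardiac actin whose promoter is printed above, was at 176, 699 and 428 CPM in atrium-like and 1895, 1128 and 2392 CPM in ventricle-like parts. The groups did not overlap, and the lowest ventricle-like library lay 1.61-fold above the highest atrium-like one. The log2 fold change was -2.05 (SE 0.56), from 434.5 ± 261 to 1805 ± 637 CPM (SD, n = 3 each). Of 16 pan-cardiomyocyte genes, all tested, 9 were lower in every atrium-like library and none higher (56.2%, against 6.20% of all genes), and all 16 had a negative fitted value with a median of -1.60, against -0.03 over all genes. The median was -1.12 without ventricle-like replicate 3, and -0.05 by construction with the scaling to these genes.

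Among the thin filament and Z-disc genes, 13 of 19 were lower in every atrium-like library (68.4%, against 6.20% of all genes). All 19 had negative fitted values. Their median was -1.59 and ran from -1.87 to -1.10 with each library left out. It was -0.01 with scaling to the pan-cardiomyocyte genes, partly by construction, since several scaling genes are in this list. Ankrd1 (chromosome 19 from 36111965 to 36119844), a stretch-responsive protein of the Z-disc region, had the smallest SE among them. It was at 59.7, 93.5 and 80.5 CPM in atrium-like and 206, 275 and 206 CPM in ventricle-like parts, 2.20-fold apart at the nearest libraries. The log2 fold change was -1.56 (SE 0.24). Csrp3, the muscle LIM protein of the Z-disc, was at 26.4, 46.6 and 58.8 CPM against 268, 85.0 and 294 CPM, without overlap, with a log2 fold change of -2.30 (SE 0.55). The troponin subunits, which make the thin filament respond to calcium, differed alike. Tnnt2 was at 55.8, 133 and 211 CPM against 310, 223 and 673 CPM, and the nearest libraries of the parts were 1.06-fold apart. Of 8 troponin genes tested, 4 did not overlap and were lower in atrium-like parts (50%, against 6.20% of all genes). They were Tnnc1, Tnni1, Tnni3 and Tnnt2, which are all scaling genes. The family median of -1.34 became 0.13 with scaling to the pan-cardiomyocyte genes. Tpm1 and Des were also lower in every atrium-like library, with log2 fold changes of -0.59 and -1.14 that turned to 1.23 and 0.31 under that scaling.

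The myosin light chains were the proteins stained in the study to tell the parts. Myl2 (chromosome 5 from 122100951 to 122106854), the ventricular regulatory light chain, was at 3.15, 22.6 and 16.9 CPM in atrium-like and 53.1, 33 and 186 CPM in ventricle-like parts. The groups did not overlap, and the log2 fold change of -2.67 (SE 0.94) became -1.59 without ventricle-like replicate 3. Myl7 (chromosome 11 from 5896637 to 5898782), its atrial counterpart, was at 98.5, 187 and 306 CPM in atrium-like and 962, 298 and 1042 CPM in ventricle-like parts. Atrium-like replicate 3 and ventricle-like replicate 2 overlapped, and the log2 fold change was -1.96 (SE 0.61). Between atria and ventricles of E11.5H it was 1.28 (edgeR adjusted p = 1.01e-05), and the interaction of part and tissue over all 12 libraries was -3.24 (edgeR adjusted p = 0.147). Myl4, the atrial essential light chain, was lower in every atrium-like library as well (34.5, 87.4 and 103 CPM against 243, 171 and 383 CPM). Myh6, the alpha myosin heavy chain, was at 255, 547 and 746 CPM against 1405, 772 and 2807 CPM, with the nearest libraries 1.04-fold apart. Of the 11 thick filament genes 4 did not overlap, all on the ventricle-like side (36.4%, against 6.20% of all genes), namely Myh6, Myl4, Myl2 and Mybpc3. The list median of -1.47 (-0.82 without ventricle-like replicate 3) became 0.18 with scaling to the pan-cardiomyocyte genes.

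**Figure D3:**
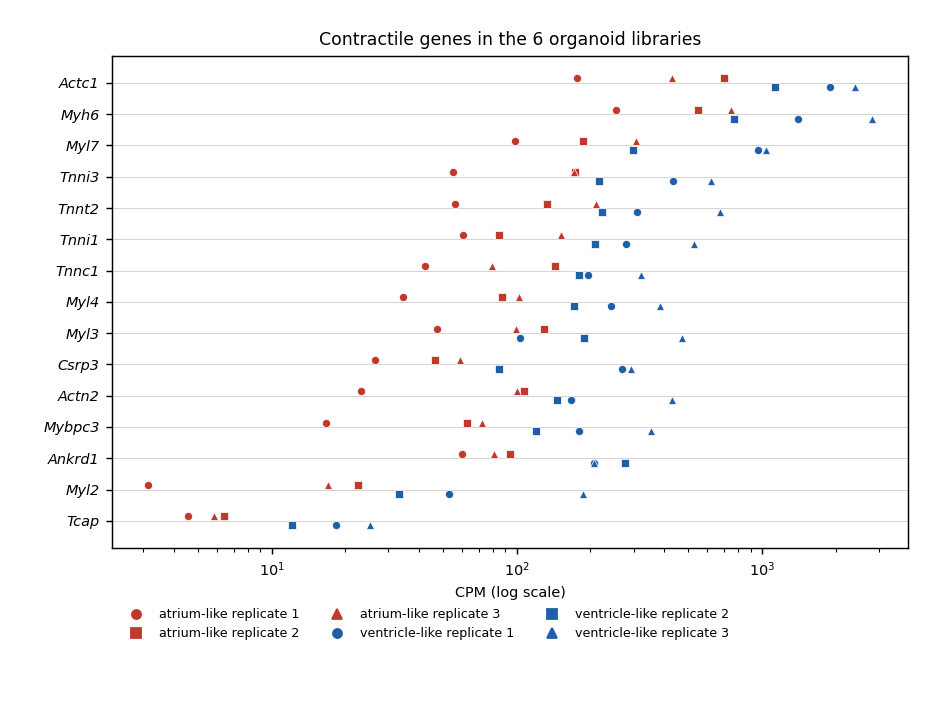
CPM of 15 contractile genes on a log axis, with 1 point per library, red for atrium-like and blue for ventricle-like parts, and a different mark for each replicate number. Ankrd1 separates by 2.20-fold at the nearest libraries, while Myl7 and Myl3 overlap.

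Calcium cycling genes were lower in every atrium-like library for 4 of 12 members (33.3%, against 6.20% of all genes), namely Pln, Jph2, Hrc and Slc8a1. The list median of -1.13 ran from -1.45 to -0.74 with each library left out and turned to 0.36 with scaling to the pan-cardiomyocyte genes. Pln, the inhibitor of the calcium pump of the sarcoplasmic reticulum, was at 6.55, 31.3 and 29.1 CPM in atrium-like and 56.9, 57.5 and 118 CPM in ventricle-like parts. It overlaps another gene on the opposite strand over 59.6% of its exons, and whether strand was used in counting is not given in the sources used here. Atp2a2, the pump itself, overlapped between the parts, at 282, 729 and 502 CPM against 1342, 679 and 1144 CPM.

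Of 18 cardiac ion channel and gap junction genes 8 were lower in every atrium-like library (44.4%, against 6.20% of all genes) and none higher, with a median of -1.50 (-0.18 with scaling to the pan-cardiomyocyte genes). Hcn4 (chromosome 9 from 58822949 to 58863174), the main pacemaker channel of the sinus node, was at 4.42, 10.5 and 10.9 CPM in atrium-like and 71.6, 31.6 and 40.4 CPM in ventricle-like parts. All 3 ventricle-like libraries lay at least 2.90-fold above the highest atrium-like one. The log2 fold change was -2.47 (SE 0.50) and ran from -2.70 to -2.07 with each library left out. Kcnj5, a subunit of the acetylcholine-gated atrial channel, was at 3.10, 6.34 and 11.2 CPM against 53.9, 18.7 and 41.1 CPM (-2.46, SE 0.61). Kcnh2, which carries the rapid repolarizing current, was at 6.60, 23.9 and 26.6 CPM against 134, 47.8 and 78.6 CPM (-2.19, SE 0.63). Both were without overlap. Connexin genes were included in this list, and Gjc1 (Cx45) was without overlap while Gja1 (Cx43) overlapped, at 57.4, 360 and 206 CPM against 373, 407 and 155 CPM. Over 69 tested genes matched to potassium channels by symbol, 15 were lower in every atrium-like library (21.7%, against 6.20% of all genes). Another 4 were higher (5.8%, near the 5.76% of all genes), with Kcnq1ot1, an RNA from the strand opposite Kcnq1, among them. The median of the 69 was -1.0, turned to 0.15 with scaling to the pan-cardiomyocyte genes, and was -0.28 without ventricle-like replicate 2. All 17 calcium channel genes tested had negative fitted values. Of these 3 were lower in every atrium-like library (17.6%, against 6.20% of all genes), namely Cacna2d2, Cacna2d3 and Cacnb3. The median of -1.19 turned to 0.25 under that scaling.

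Genes that mark atria, ventricles and the sinus node all had negative medians, so that ventricular genes lay in the direction of their name and atrial genes against it, although the ventricular and sinus node medians turned with scaling to the pan-cardiomyocyte genes. All 13 atrial genes had negative fitted values. Of these 5, or 38.5% against 6.20% of all genes, were lower in every atrium-like library (Myl4, Tbx5, Kcnj5, Nppa and Kcnj3). The median of the 13 was -1.24, ran from -1.45 to -0.95 with each library left out, and was -0.03 with scaling to the pan-cardiomyocyte genes. Of 11 ventricular genes 9 had negative fitted values and 1, Myl2, was lower in every atrium-like library (9.09%, against 6.20% of all genes). The ventricular median of -1.15 became -0.35 without ventricle-like replicate 2 and turned to 0.47 with scaling to the pan-cardiomyocyte genes. Of 8 sinus node genes 4 were lower in every atrium-like library (50%, against 6.20% of all genes), with Hcn4, Shox2 and Tbx18 among them. The list median of -1.45 turned to 0.10 under that scaling. In E11.5H, 12 of the 13 atrial genes were higher in every atrial library than in any ventricle library. All 11 ventricular genes were higher in every ventricle library. The names atrium-like and ventricle-like are therefore used here for the parts as dissected and labelled.

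Among 27 cardiac transcription factors 6 were lower in every atrium-like library (22.2%, against 6.20% of all genes) and none higher. The 6 were Mef2a, Tbx5, Smyd1, Myocd, Shox2 and Tbx18. The list median of -0.74 turned to 0.60 with scaling to the pan-cardiomyocyte genes. Tbx5 (chromosome 5 from 119834663 to 119885218), a regulator of atrial and left ventricular development, was at 11.2, 24.9 and 26.6 CPM in atrium-like and 64.5, 30.2 and 53.4 CPM in ventricle-like parts. The nearest libraries were 1.13-fold apart, and the log2 fold change of -1.24 (SE 0.44) turned to 0.31 with scaling to the pan-cardiomyocyte genes. Smyd1, a histone methyltransferase of muscle, was at 4.06, 9.21 and 7.83 CPM against 28.8, 14.3 and 46.6 CPM (-2.09, SE 0.55). The early cardiac factors Gata4 and Gata6 overlapped, with log2 fold changes of -0.15 (SE 0.50) and 0.29 (SE 0.26). 

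Genes of absorptive and intestinal epithelium were higher in atrium-like parts. Fabp2 (chromosome 3 from 122895072 to 122899506), the fatty acid binding protein of enterocytes, was at 5837, 756 and 1460 CPM in atrium-like and 61.5, 2.10 and 367 CPM in ventricle-like parts. The lowest atrium-like library lay 2.06-fold above ventricle-like replicate 3, which in turn lay far above the other ventricle-like libraries. The log2 fold change was 4.23 (SE 1.76), which was 2.92 without atrium-like replicate 1 and 6.40 without ventricle-like replicate 3. Fabp1, its liver and gut paralog, was at 6588, 444 and 409 CPM against 69.7, 1.67 and 256 CPM. Of 20 genes in this list 7 were higher in every atrium-like library and none lower (35%, against 5.76% of all genes), namely Fabp1, Fabp2, Lgals4, Anpep, Mep1b, Slc5a1 and Dpp4, which bind lipid or sugar, cut peptides or carry glucose. All 20 had positive fitted values, with a median of 2.92 (1.98 without atrium-like replicate 1 and 5.31 without ventricle-like replicate 3, where all 20 were without overlap).

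Endoderm transcription factors were higher in every atrium-like library for 4 of 20 members (20%, against 5.76% of all genes) and lower for none. The 4 were Creb3l3, Hnf4g, Cdx1 and Pdx1. Fitted values were positive for 16 of the 20 and negative for 4 others, down to -1.54. The list median of 1.94 ran from 1.21 (atrium-like replicate 1 left out) to 4.67 (ventricle-like replicate 3 left out). Creb3l3 (chromosome 10 from 81084333 to 81098872), a factor of liver and small intestine that controls lipid genes, was at 412, 41.7 and 114 CPM in atrium-like and 7.22, 0.799 and 23.9 CPM in ventricle-like parts (4.15, SE 1.41). Hnf4g, an intestinal nuclear receptor, was at 82.9, 16.6 and 21.5 CPM against 0.938, 0.167 and 7.89 CPM (3.75, SE 1.45). Cdx2, the master factor of intestine, overlapped because ventricle-like replicate 3 (44.1 CPM) lay above atrium-like replicate 2 (28.8 CPM).

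Plasma proteins of liver and yolk sac did not separate the parts, although all 21 genes tested had positive fitted values. Afp (chromosome 5 from 90490714 to 90508907), the fetal plasma protein with the HNF1 motif printed above, was at 11340, 179 and 3784 CPM in atrium-like and 202, 4.26 and 5488 CPM in ventricle-like parts. The second highest library was thus ventricle-like. The log2 fold change of 1.43 (SE 2.19) was 0.02 without atrium-like replicate 1 and 5.63 without ventricle-like replicate 3. The 1 member without overlap (4.76%, near the 5.76% of all genes) was Apoa4, an apolipoprotein of intestine and yolk sac. It was at 7871, 584 and 2221 CPM against 75.7, 0.0333 and 502 CPM, and it overlaps another gene over 34.8% of its exons. The list median was 1.35, and 0.80 without ventricle-like replicate 1 but 5.57 without ventricle-like replicate 3. The 17 epithelial junction and keratin genes behaved likewise, with all fitted values positive, none without overlap and a median of 1.32. Krt8, the keratin of simple epithelium, was at 2715, 844 and 2750 CPM in atrium-like and 642, 652 and 1566 CPM in ventricle-like parts. The absorptive, endoderm, plasma protein and epithelial lists had positive medians with each of the 4 scalings run.

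**Figure D4:**
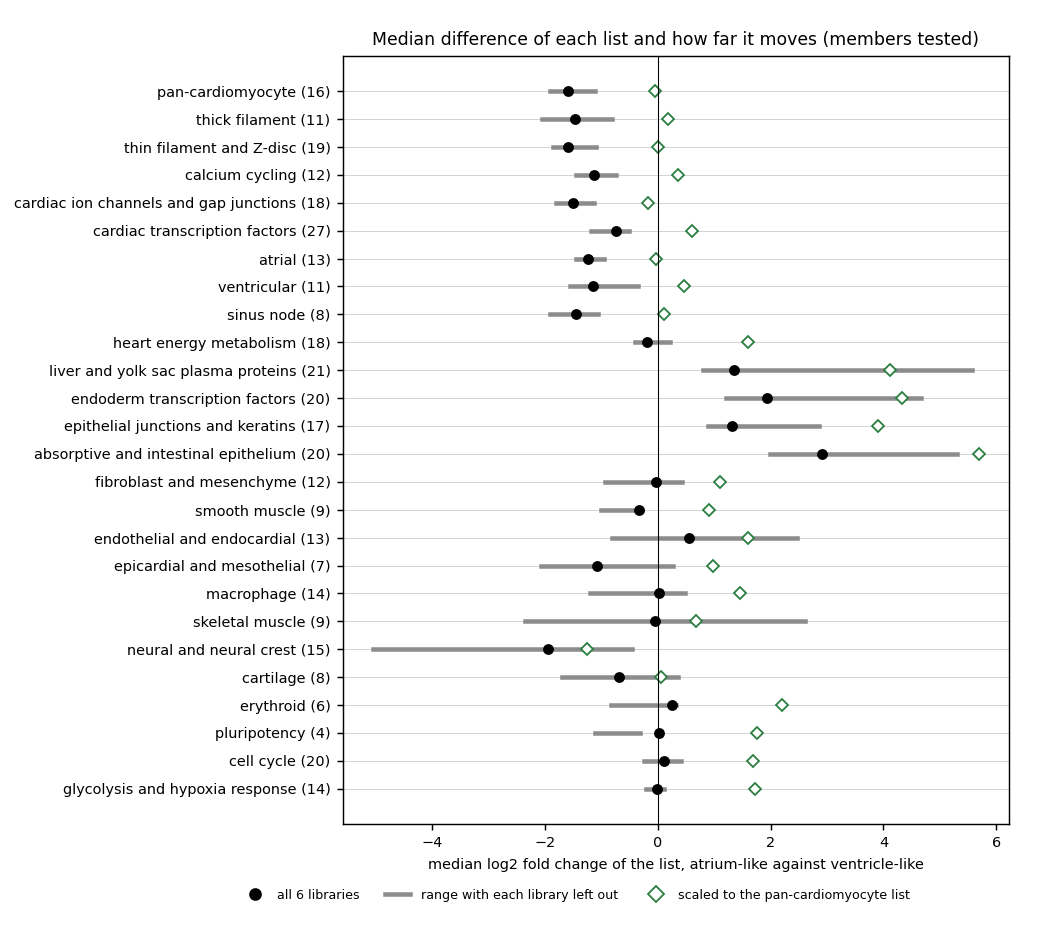
Median fitted log2 fold change of each marker list (horizontal axis, atrium-like against ventricle-like parts) as a point, the range of the median with each library left out and low genes filtered anew as a line, and the median with scaling to the pan-cardiomyocyte genes as an open diamond. The thick filament and the thin filament and Z-disc lists stay below 0 with each library left out, though the former turns to 0.18 with that scaling, and the absorptive list runs from 1.98 to 5.31.

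Genes without overlap that averaged 5 CPM or more in the higher part were ranked by fitted log2 fold change. The 15 with the largest values toward the atrium-like parts were Cyp2c29, G6pc, Gal3st2, Slc6a20a, Cyp4f14, Lct, Dct, Leap2, Abcg8, Slc26a3, Gkn2, Slc2a5, Cps1, Smcp and Hsd17b13. Of these, 14 were highest in atrium-like replicate 1 and Gkn2 in replicate 2. Cyp2c29 (chromosome 19 from 39287085 to 39330713), a drug and fatty acid oxidizing enzyme with close paralogs that could share its fragments, was at 241, 5.99 and 3.18 CPM in atrium-like and 0, 0 and 1.09 CPM in ventricle-like parts, where a count of 0 allows up to 0.104 and 0.0999 CPM. Its log2 fold change of 7.82 (SE 2.63) was 3.63 without atrium-like replicate 1. Lct, the lactase of the intestinal brush border, was at 305, 8.02 and 3.45 CPM against 1.49, 0 and 3.04 CPM, so that 1 library set its size (6.12, and 1.91 without atrium-like replicate 1). Cps1, the first enzyme of the urea cycle, was at 452, 171 and 36.1 CPM against 2.5, 0 and 18.1 CPM (5.0, SE 1.98). Gkn2, a secreted protein of the stomach lining, was at 7.52, 484 and 25.6 CPM against 0.382, 5.93 and 5.57 CPM, and its log2 fold change of 5.44 became 2.06 without atrium-like replicate 2. Gal3st2, a sulfotransferase of mucins, had 450 fragments in the 3 atrium-like and 4 in the 3 ventricle-like libraries, a ratio of 129 after scaling to depth (95% exact interval 50.1 to 476, counting error only).

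Among the 15 with the largest values toward the ventricle-like parts were Dcc, Adgrf4, Gria2, Ppbp, Wscd1, Cacna2d3, Lypd3, Rgs8, Gng4, Aqp5, Caly, Tmem255a, Vsnl1 and Krt17, of which none is a gene of the sarcomere. Dcc, a netrin receptor of axons, was at 0.152, 0.193 and 0 CPM in atrium-like and 2.01, 16.8 and 1.71 CPM in ventricle-like parts (-5.83, and -3.96 without ventricle-like replicate 2). Gria2, a glutamate receptor subunit, was at 0, 0.451 and 0.537 CPM against 0.868, 36.5 and 0.717 CPM, so that ventricle-like replicate 2 set its size (-5.22, and -1.24 without it). That library had the highest summed level of neural genes. Ppbp, a platelet chemokine, was at 192 CPM in ventricle-like replicate 1 and at 1.61 to 2.49 CPM in the other 5 libraries, and its log2 fold change of -5.17 became -0.41 without that library. Krt17 (chromosome 11 from 100256215 to 100261029), a keratin of stratified epithelium, was at 1.93, 2.71 and 1.23 CPM against 49.5, 7.29 and 12.2 CPM (-3.55, SE 0.86). The part of neural or epithelial cells in these values was not tested.

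**Figure D5:**
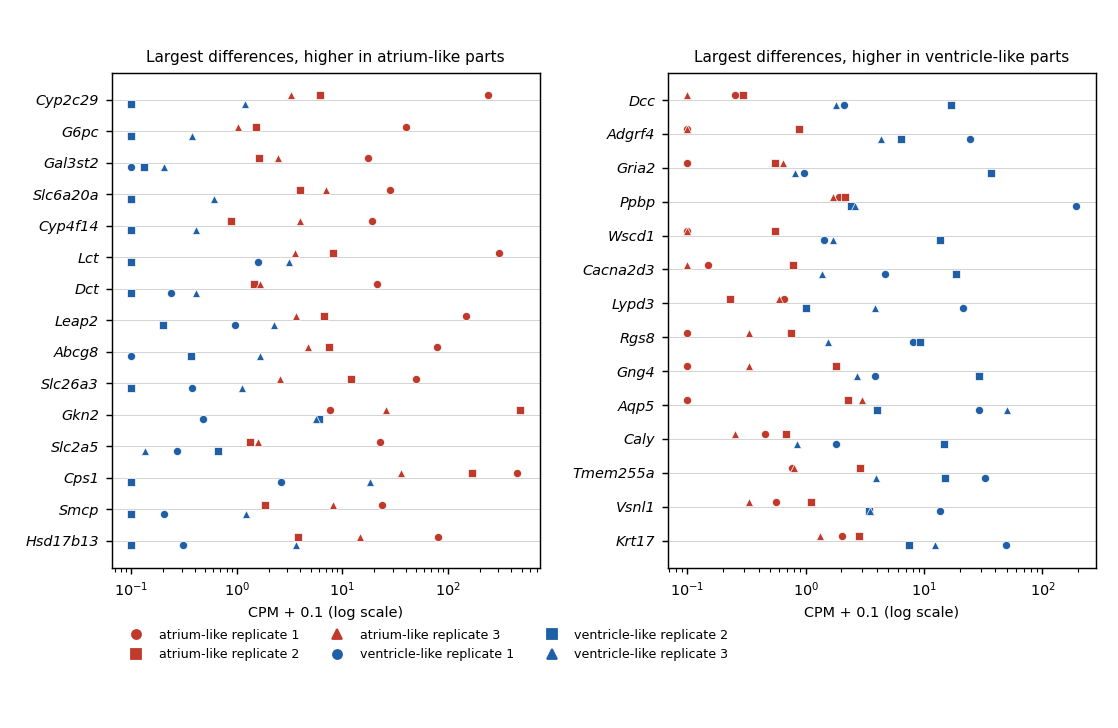
CPM plus 0.1 on a log axis of the genes named above with the largest fitted log2 fold change in each direction among those without overlap, with 1 point per library, red for atrium-like and blue for ventricle-like parts. Most genes higher in atrium-like parts have their highest point in atrium-like replicate 1, and several genes higher in ventricle-like parts have theirs in ventricle-like replicate 2.

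Genes were also chosen by the gap between the nearest libraries of the parts, a set that holds some of the genes above. Asking for 2-fold or more between the nearest libraries, and again for an average of 5 CPM or more in the higher part, left 36 genes higher in atrium-like (0.229% of those tested) and 30 higher in ventricle-like parts (0.191%). B3gnt3 (chromosome 8 from 71691720 to 71701800), a glycosyltransferase that extends mucin-type glycans, was at 36.1, 45.8 and 38.5 CPM in atrium-like and 3.16, 4.26 and 8.57 CPM in ventricle-like parts. The nearest libraries were 4.21-fold apart, and the log2 fold change of 2.91 (SE 0.44) ran from 2.62 to 3.43 with each library left out. Pitx1 (chromosome 13 from 55825054 to 55831425), a homeodomain factor of the hindlimb and of oral and pituitary epithelium, was at 59.2, 90.0 and 88.4 CPM against 14.7, 26.7 and 14.6 CPM (2.08, SE 0.34). Klf4, a zinc finger factor of epithelial barriers, was at 88.2, 56.2 and 126 CPM against 17.1, 21.2 and 28.0 CPM (2.02, SE 0.36). Trim30a, an interferon-induced protein, was at 52.8, 31.1 and 49.3 CPM against 13.1, 12.6 and 15.1 CPM (1.71, SE 0.28). These 4 genes varied less than 3-fold among the 3 libraries of either part, while Fabp2 and Cyp2c29, which are also in this set, varied more.

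On the ventricle-like side this set held cardiac genes beside genes of other kinds. Besides Hcn4 and Ankrd1 it included Fitm1, a lipid droplet protein of muscle, at 6.25, 11.6 and 9.05 CPM in atrium-like and 38.3, 24.4 and 35.8 CPM in ventricle-like parts (-1.87, SE 0.34). Tecrl, a reductase of heart muscle in which mutations cause arrhythmia, was at 1.52, 3.44 and 2.49 CPM against 9.58, 8.79 and 14.2 CPM (-2.12, SE 0.49). Ndrg4 (chromosome 8 from 95703037 to 95715119), expressed in heart and brain, was at 12.8, 56.2 and 46.6 CPM against 134, 174 and 140 CPM (-1.95, SE 0.54). Adra1b, an adrenergic receptor, was at 5.84, 18.7 and 18 CPM against 57.4, 38.4 and 40.8 CPM (-1.68, SE 0.48). Of the connexins, Gja3 was at 1.42, 2.80 and 3.80 CPM against 9.31, 8.46 and 9.02 CPM (-1.74, SE 0.50). The zinc finger genes Zfp641 and Zfp39 were 3.61-fold and 2.85-fold apart at the nearest libraries, with log2 fold changes of -2.52 (SE 0.49) and -2.01 (SE 0.40). With scaling to the pan-cardiomyocyte genes the counts of 36 and 30 became 908 and 0, and with 1 library left out they ran from 44 to 444, highest without ventricle-like replicate 3, and from 33 to 229, highest without atrium-like replicate 2.

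At the same thresholds DESeq2 called 34 genes higher in atrium-like and 22 higher in ventricle-like parts, and 53 of these 56 were without overlap. Its calls included B3gnt3, Pitx1, Klf4, Trim30a, Gal3st2 and Bmp2 on the atrium-like side and Hcn4, Ankrd1, Csrp3, Tcap, Kcnj5, Fitm1 and Tecrl on the ventricle-like side. Bmp2, a signal that patterns the atrioventricular canal, was at 90.8, 67.0 and 86.5 CPM in atrium-like and 43.4, 32.6 and 34.5 CPM in ventricle-like parts. Its groups did not overlap, and the edgeR log2 fold change was 1.15 (SE 0.21).

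Markers of the stroma and of other tissues overlapped between the parts for nearly all members. Of 12 fibroblast and mesenchyme genes 1, Fbln1, was higher in every atrium-like library (8.33%, against 5.76% of all genes). It was at 270, 262 and 319 CPM in atrium-like and 155, 144 and 135 CPM in ventricle-like parts (0.97, SE 0.17). The collagen genes varied more within a part than between parts, with Col1a2 at 1295, 3317 and 1109 CPM against 10890, 2159 and 486 CPM. The list median of -0.03 turned to 0.43 without ventricle-like replicate 1, and to 1.10 with scaling to the pan-cardiomyocyte genes. Of 9 smooth muscle genes 1, Synpo2, was lower in every atrium-like library (11.1%, against 6.20% of all genes). The smooth muscle median of -0.33 turned to 0.91 under that scaling. Endothelial genes had no member without overlap among 13, and their median of 0.55 turned to -0.82 without atrium-like replicate 2. Of 14 genes put in the macrophage list 1, Lyz1, was higher in every atrium-like library (7.14%, against 5.76% of all genes). It was at 8.33, 5.41 and 8.29 CPM against 0.174, 0.0333 and 0.649 CPM. Its close paralog Lyz2 overlapped, at 34.2, 505 and 18.4 CPM against 252, 399 and 46.9 CPM, so Lyz1 did not follow the macrophage genes here. The defining macrophage gene C1qb overlapped as well, at 46.1, 161 and 2.72 CPM against 72.6, 111 and 7.17 CPM.

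Epicardial genes had no member without overlap among 7 tested of 8, and their median of -1.09 turned to 0.27 without ventricle-like replicate 1 and to 0.97 with scaling to the pan-cardiomyocyte genes. Of 15 neural and neural crest genes tested none was without overlap, and the median of -1.95 was -5.04 without atrium-like replicate 2 and -0.45 without ventricle-like replicate 2. The mean log2 CPM of skeletal muscle genes was highest in replicate 2 of both parts. Of 20 such genes 9 passed the filter on low counts, and Myod1, Myog and Myh3, which did not pass it, had 643 to 1457 fragments in replicate 2 of both parts and at most 5 in the other 4 libraries. Acta1, the skeletal actin that the fetal heart also uses, was the 1 member without overlap (11.1%, against 5.76% of all genes). It was at 383, 330 and 1025 CPM in atrium-like and 178, 263 and 279.5 CPM in ventricle-like parts. Its log2 fold change of 1.27 was 0.57 without atrium-like replicate 3. The list median was -0.05 over the 9. It was -2.36 without atrium-like replicate 2, 2.61 without ventricle-like replicate 2, and 0.67 with scaling to the pan-cardiomyocyte genes. Cartilage genes and erythroid genes had none without overlap, among 8 and 6 tested, with medians of -0.69 and 0.25 that turned to 0.36 without ventricle-like replicate 2 and -0.83 without atrium-like replicate 1, and the cartilage median turned to 0.05 under that scaling. Of 9 pluripotency genes 4 were tested, with Lin28a higher and Esrrb lower in every atrium-like library.

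The marker lists of cell cycle and glycolysis had small medians. Of 20 cell cycle genes 1, Plk1, was higher in every atrium-like library (5%, near the 5.76% of all genes). It was at 38.5, 65.1 and 51.1 CPM in atrium-like and 30.9, 23.9 and 34.1 CPM in ventricle-like parts, and the list median was 0.12. Ldha, the lactate dehydrogenase subunit of anaerobic tissue, was at 4059, 2997 and 3767 CPM against 3897, 3883 and 3845 CPM (-0.10, SE 0.21). None of the 14 glycolysis and hypoxia genes tested of 15 was without overlap, and their median of -0.02 turned to 1.72 with scaling to the pan-cardiomyocyte genes. Of 18 genes of heart energy metabolism 1, Cox7a1, was lower in every atrium-like library (5.56%, near the 6.20% of all genes). The median of the 18, -0.19, turned to 0.22 without ventricle-like replicate 1 and to 1.60 under that scaling.

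The spread within each part was compared over genes tested in that part. The common biological coefficient of variation was 0.52 among atrium-like and 0.508 among ventricle-like libraries, against 0.185 in atria and 0.171 in ventricles of E11.5H. The median SD of log2 CPM was 0.465 and 0.373 in the HO parts and 0.165 and 0.146 in the chambers. An SD over 1 was found for 19.6% of genes in atrium-like and 16.2% in ventricle-like parts, against 1.92% in atria and 1.79% in ventricles. The SD was larger in atrium-like parts for 9322 of 15703 genes and larger in ventricle-like parts for 6368. The difference in spread between the parts was not tested.

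The genes without overlap in HOs were set beside atria and ventricles of E11.5H, where genes without overlap in CPM were counted likewise. The counts are over genes that passed the filter on low counts there, and use no p-value. Of the 905 genes higher in atrium-like parts 761 were tested in E11.5H. There 105 (13.8%) were higher in every atrial library and 119 (15.6%) higher in every ventricle library. Of the 973 genes higher in ventricle-like parts 929 were tested, with 176 (18.9%) higher in every atrial and 192 (20.7%) higher in every ventricle library. Over all 14062 genes tested in E11.5H, 16.0% were higher in every atrial and 16.8% in every ventricle library. The shares in either direction thus lay near those of all genes. Of 17 tested genes that the study names for the parts, 4 were lower in every atrium-like library (23.5%, against 6.20% of all genes), namely Myl2, Tbx5, Cend1 and Kcnj3. Slc7a7 was higher (5.88%, near the 5.76% of all genes). The median of -0.59 turned to 0.62 with scaling to the pan-cardiomyocyte genes. The study named some of these genes for their levels in these HO parts and others as known chamber genes that differed in E11.5H, so their counts are not independent evidence of a direction.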

How the data were processed

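RNA was measured by sequencing in the dissected parts of HOs, with 3 libraries from each part. Per the labels and the methods, the authors used STAR for mapping, with GRCm38/mm10 as the reference, and deposited expected counts, the fragments assigned to each gene without normalization, of which 24.7% were not whole in these libraries. The authors also deposited FPKM values, the counts divided by gene length and library total. The versions, the counting tool, the annotation and the use of strand are not given in the sources used here. Samples were grouped by the labels, and each column of the deposited table by the description of its sample.

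Expected counts of these 6 libraries were rounded, filtered with filterByExpr at a minimum count of 10, scaled by TMM and tested without covariates by the quasi-likelihood test of edgeR 4.0.16 (R 4.3.3), and p-values were adjusted after Benjamini and Hochberg. The SE is the log2 fold change divided by the square root of the F statistic. A gene had no overlap when the lowest library of 1 part lay above the highest of the other in CPM. A count of 0 allows up to 0.0966 to 0.152 CPM (3 counts, counting error only). DESeq2 1.42.0, limma 3.58.1 (voom), other scalings, no filter, the replicate number as a block, all 12 libraries in 1 fit, a covariate for plasma proteins and leaving out each library were alternatives. All p-values measure the spread between these samples. Scripts were tested on simulated data. Summaries and plots used pandas 2.3.3 and matplotlib 3.10.9 under Python 3.11.15, and promoters were read from RefSeq tables by symbol. Pathway names come from a column of the deposited table.

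Named were the 15 genes with the largest log2 fold change in each direction without overlap and with 5 CPM or more on average in the higher part, the 4 members of each list with the highest mean FPKM and its members without overlap, and genes the study names. Some genes that met this rule are not reported here. Genes at least 2-fold apart, DESeq2 calls, gene families and pathways were named after their values were seen. The comparison, the 27 gene lists and their members were chosen with earlier results of these data known. The other samples of the study were not analysed here.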

Additional observations from a re-analysis of the deposited data

Results flagged for a closer look

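Genes with the largest differences, list members without overlap and the atrial and ventricular lists were screened against the chambers of E11.5H. The test was the interaction of part and tissue in an edgeR fit over all 12 libraries. For 5 of the genes screened it passed an adjusted p of 0.05. That fit estimates 1 spread per gene over both tissues. The common biological coefficient of variation was 0.52 and 0.508 in the HO parts, but 0.185 and 0.171 in the chambers. The fit may therefore understate the spread of the HO parts and give p-values that are too small. Vsnl1, a neuronal calcium sensor, had a log2 fold change of -3.56 in HO parts and 6.68 between atria and ventricles, an interaction of -10.193 on the log2 scale (edgeR adjusted p = 0.0121). Shox2, a sinus node factor, had -1.61 and 7.34, with an interaction of -8.939 (edgeR adjusted p = 0.000193). The pacemaker channel gene Hcn4 had an interaction of -3.967 (edgeR adjusted p = 0.0323). The atrial nuclear receptors Nr2f1 and Nr2f2 had interactions of -5.097 and -3.109 (edgeR adjusted p = 0.0488 and 0.00285), with log2 fold changes of -0.74 and -0.31 between the HO parts and of 4.37 and 2.81 between the chambers. In all 5 the value was positive between atria and ventricles and negative between the HO parts, where Nr2f1 and Nr2f2 overlapped.

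For 12 further genes of those screened the libraries of the parts did not overlap in either tissue and lay in opposite order. Their interaction did not pass an adjusted p of 0.05, so that a difference between the tissues was not shown. The differences of the log2 fold changes were -3.261 for Myh6, -1.986 for Tnni3 and -2.213 for Myl4 among contractile genes. They were -3.589 for Kcnj5, -4.014 for Kcnj3 and -3.839 for Kcnd2 among potassium channels, and -2.888 for Tbx5 and -2.961 for Tbx18 among transcription factors. Outside the cardiac lists they were -6.127 for Ppbp, -5.808 for Aqp5 and -4.246 for Tmem255a. Of these 12 genes, Lyz1 was the 1 that was higher in atrium-like parts and lower in atria, with a difference of 11.48. Genes named only for the gap between the nearest libraries were outside this screen. Among them B3gnt3, higher in every atrium-like library, was lower in every atrial library of E11.5H (log2 fold change -1.58). Pitx1 and Trim30a were higher in every atrial library as well, and Klf4 overlapped. With scaling to the pan-cardiomyocyte genes the HO values of Tbx5, Shox2, Nr2f1 and Nr2f2 turned positive.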

How the results depend on the processing

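The count of 0 genes called by edgeR was also found with the other size factors, without the filter, with limma, with all 12 libraries in 1 fit (2503 genes at an unadjusted p below 0.05), with the plasma protein covariate and with each library left out (0 to 0). It was 56 with DESeq2, 1695 with scaling to the pan-cardiomyocyte genes and 889 at an unadjusted p. Genes without overlap were 8077 higher and 37 lower in atrium-like parts under that scaling, and 1276 to 3221 higher and 1418 to 2814 lower with each library left out. Same-numbered parts deviated together with correlations of 0.016, 0.579 and 0.337, and atrium-like replicates 2 and 3 correlated best with their own number but replicate 1 with ventricle-like replicate 3 (0.412). No source used here gives a shared origin, and the numbers were not used as pairs. With the number as a replicate block 0 genes were called, and 1417 had an unadjusted p below 0.05. Scaling to the pan-cardiomyocyte genes turned 13 of the 86 genes that were tracked under all alternatives (those with the largest differences and list members without overlap) from lower to higher in atrium-like parts, with log2 fold changes of 0.129 for Tnnc1, 1.23 for Tpm1, 0.307 for Des, 0.054 for Tcap, 0.145 for Jph2, 0.585 for Hrc, 0.099 for Slc8a1, 0.238 for Gjc1, 0.959 for Mef2a, 0.313 for Tbx5, 0.253 for Myocd, 0.068 for Shox2 and 0.651 for Cox7a1, and it moved other genes named in the text (among them Gata4, Atp2a2, Gja1, Col1a2, Ldha, Ldhb, Pfkm and Lyz2) and the medians of 13 of 27 lists across 0. Tnnc1 is itself a scaling gene, so its value under that scaling is partly fixed by construction. The other alternatives turned none of the 86. The spread between 3 libraries a part, with a median SE of 0.44 on the log2 scale, limits the precision of single genes, and a count of 0 allows up to 0.152 CPM.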

Other observations

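Gene families and pathways outside the marker lists were described by the same counts. They were picked for description after their values were seen and carry no test. Over all genes tested 5.76% were higher and 6.20% lower in every atrium-like library. Solute carriers, the transporters of nutrients and ions, were higher in every atrium-like library for 42 of 276 genes tested (15.2%) and lower for 14 (5.07%, near the share of all genes), with a median of 0.24. They included Slc5a1 for glucose, Slc26a3 for chloride, Slc34a2 for phosphate and Slc39a4 for zinc. Slc39a4 was at 362, 136 and 252 CPM in atrium-like and 26.4, 16.6 and 104 CPM in ventricle-like parts. The cytochrome P450 genes were higher in 8 of 45 and lower in none, with a median of 1.42 (3.55 without ventricle-like replicate 3), and Cyp2c65 was at 267, 72.3 and 27 CPM against 7.64, 0 and 8.54 CPM. All 10 glucuronosyltransferase genes tested had positive fitted values, with a median of 2.89 (1.35 without atrium-like replicate 1), although genes of the Ugt1a and Cyp2c clusters can share fragments. Of 291 pathways with at least 20 genes tested, fat digestion and absorption had 9 of 29 genes higher and 1 lower. On the ventricle-like side, cardiac muscle contraction had 16 of 71 genes lower in every atrium-like library and 0 higher, with a median of -0.45 that turned to 0.69 with scaling to the pan-cardiomyocyte genes.

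Genes of antigen processing and presentation were higher in every atrium-like library for 16 of 64 tested (25%, against 5.76% of all genes). They were lower for 1 (1.56%, against 6.20%), with a median of 0.54. B2m, the light chain of class I molecules, was at 1170, 636 and 599.8 CPM in atrium-like and 367, 416 and 326 CPM in ventricle-like parts (1.12, SE 0.31). H2-D1, a class I heavy chain with close paralogs, was at 778, 378 and 514 CPM against 161, 242 and 262 CPM (1.33, SE 0.34). Both sets of libraries were apart, with atrium-like replicate 1 highest. The peptide transporters Tap1 and Tap2 and the immunoproteasome subunits Psmb8 and Psmb9 were without overlap in the same direction, as were Isg15 and Oas1a, which interferon induces. Isg15 was at 174, 78.8 and 154 CPM against 41, 40.5 and 51.6 CPM (1.61, SE 0.33). Over all 48 proteasome genes 4 were higher in every atrium-like library (8.33%, against 5.76% of all genes) and 0 lower. The median of the 48 was -0.04 and turned to 1.69 with scaling to the pan-cardiomyocyte genes.

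In the pathway of glycolysis and gluconeogenesis, which is wider than the glycolysis list above, genes were without overlap in both directions. Of 58 genes tested 5 were higher in every atrium-like library (8.62%, against 5.76% of all genes) and 8 lower (13.8%, against 6.20%). The muscle forms Eno3, Pgam2 and Pfkm and the heart form Ldhb were lower in every atrium-like library, although Eno3, Pfkm and Ldhb turned positive with scaling to the pan-cardiomyocyte genes. Ldhb was at 50.3, 133 and 159 CPM in atrium-like and 308.5, 182 and 325 CPM in ventricle-like parts, a log2 fold change of -1.25 (SE 0.47) that was 0.23 with scaling to the pan-cardiomyocyte genes. G6pc, the last step of glucose release in liver and gut, and Hkdc1, a hexokinase of epithelium, were higher in every atrium-like library. Among subunits of respiratory complex I, 8 of 47 were lower in every atrium-like library (17%, against 6.20% of all genes) and 0 higher. Their median of -0.16 turned to 1.67 with scaling to the pan-cardiomyocyte genes. Zinc finger genes named Zfp were lower for 46 of 376 (12.2%, against 6.20% of all genes) and higher for 9 (2.39%, against 5.76%). Their median of -0.24 turned to 1.41 under that scaling.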
